A study of Mus musculus with 6 samples.

Results

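The genes described here are known, from mouse mutants, to be needed for closure of the neural tube, with the core planar polarity genes left aside. They were listed by symbol and not by a rule on their measured values, but with earlier results of these data known. Of 39 listed genes, 34 were among the 12107 genes counted, which gave 102 of 36321 gene regions, since each gene had a promoter, a gene body and a transcription end site (TES) region. Intu, Shroom3, Grhl2, Grhl3 and Tfap2a were not analysed here.

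Pol II occupancy was measured by ChIP-seq of RPB1 (POLR2A), the catalytic core subunit of the polymerase, with an antibody that binds its N-terminal part, in 3 libraries of Armc5 KO and 3 libraries of WT neural progenitor cells (NPCs). Both genotypes were mice of strain 129 sv X CD1 at e13.5, per the labels, and the cells grew as neurospheres from dissected ganglionic eminences, the ventral part of the forebrain. The study's text names another mouse background and, in one place, brain and spinal cord as the source of the cells, so both are uncertain. ARMC5 is the substrate-recognition subunit of an E3 ubiquitin ligase that acts on RPB1. The KO is present in every cell of the animal, the libraries carry replicate numbers 1 to 3 in each genotype, and neither spike-in chromatin nor an input library was used, so a change in total Pol II on the genome cannot be told apart from sequencing depth.

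In the embryo the neural plate bends at hinge points, its folds rise and meet at the midline, and the tube seals before the stage sampled here. Mutants that fail in this process fall into a few classes. Polarity and WNT genes drive the convergence that narrows the plate, and actin and junction genes let cells constrict their apical side. Transcription factors and chromatin proteins pattern the dorsal folds, and cilium and hedgehog genes set how strongly the hedgehog signal acts in the plate. Folate enzymes supply 1-carbon units to dividing cells. The cells of the assay are cultured progenitors and not a closing neural tube, so the values describe Pol II on these genes in a related cell type.

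The libraries held 25199455, 19748346 and 16056262 counted reads for KO and 18863084, 23808344 and 14528870 for WT. Replicate 3 stood apart in both genotypes, with 6.88% of its reads in promoters in KO and 6.04% in WT, against 11% to 12.2% in the other KO libraries and 10.9% and 11.2% in the other WT libraries. WT replicate 3 also had a summed 0.731 CPM (reads per 1000000 counted reads after scaling) over 4 Y-linked genes, against 118 to 141 in KO and 185 and 216 in the other WT libraries. No check of the genotype on Armc5 itself was made, because that gene was not analysed here. Neural precursor genes were present (11 of 12 listed markers, summed gene body signal 569 to 1040 CPM in KO and 550 to 1000 CPM in WT), as were 7 of 10 ganglionic eminence markers, while 0 of 10 surface ectoderm markers were among the counted genes. Of 10 markers of the dorsal neural tube and neural crest, 3 were counted. Their summed gene body signal was 31.6 to 34.3 CPM in KO and 30.1 to 41.5 CPM in WT. Neuron markers (6 of 8) summed to 1020 to 1310 CPM in KO and 1040 to 1390 CPM in WT. Oligodendrocyte lineage markers (5 of 7) summed to 250 to 416 CPM in KO and 249 to 440 CPM in WT. The sums were not scaled for gene length, so they do not rank cell types.

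The promoters with the smallest p among those matched to a RefSeq entry are printed as RefSeq sequences. They are not the 500-base windows that were counted, whose starts are not given in the sources used here. Capitals mark matches to the GC box GGGCGG or the CCAAT box on either strand. Each printed sequence covers 300 bases of the strand that is transcribed, from 250 bases before to 50 after a RefSeq start (assembly GRCm38.p6). They are the Ski promoter (chr4:155222486-155222785, minus strand), the Zic5 promoter (chr14:122465609-122465908, minus), the Lrp2 promoter (chr2:69585980-69586279, minus) and the Wdpcp promoter (chr11:21572031-21572330, plus).
Ski: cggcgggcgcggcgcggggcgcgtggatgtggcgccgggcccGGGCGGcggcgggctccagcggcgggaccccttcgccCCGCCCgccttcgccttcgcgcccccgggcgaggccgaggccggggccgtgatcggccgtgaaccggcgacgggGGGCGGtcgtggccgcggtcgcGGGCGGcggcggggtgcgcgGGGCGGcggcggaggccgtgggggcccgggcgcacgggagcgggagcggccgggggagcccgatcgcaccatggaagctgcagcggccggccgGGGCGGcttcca
Zic5: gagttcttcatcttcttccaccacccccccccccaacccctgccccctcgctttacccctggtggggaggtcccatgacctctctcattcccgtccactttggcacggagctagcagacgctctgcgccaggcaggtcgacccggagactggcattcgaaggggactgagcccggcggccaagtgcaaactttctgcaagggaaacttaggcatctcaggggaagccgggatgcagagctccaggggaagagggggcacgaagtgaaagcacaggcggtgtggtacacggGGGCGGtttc
Lrp2: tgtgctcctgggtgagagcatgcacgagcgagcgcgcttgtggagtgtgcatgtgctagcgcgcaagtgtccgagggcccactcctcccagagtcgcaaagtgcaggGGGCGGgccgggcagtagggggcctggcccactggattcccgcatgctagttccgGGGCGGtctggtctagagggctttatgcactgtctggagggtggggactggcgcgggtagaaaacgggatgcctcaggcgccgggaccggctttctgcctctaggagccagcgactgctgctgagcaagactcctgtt
Wdpcp: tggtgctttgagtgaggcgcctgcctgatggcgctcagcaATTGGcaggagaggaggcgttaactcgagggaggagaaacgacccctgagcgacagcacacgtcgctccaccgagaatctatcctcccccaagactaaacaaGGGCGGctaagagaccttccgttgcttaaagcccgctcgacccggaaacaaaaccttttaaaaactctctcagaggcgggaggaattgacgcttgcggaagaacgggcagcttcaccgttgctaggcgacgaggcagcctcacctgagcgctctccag

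The printed Ski promoter was 85.3% GC with 59 CpG dinucleotides, the highest of the members, and the Zic5 promoter was 62.7% GC with 15. Promoter sequences were matched for 27 of the 34 genes, and Scrib, Pax3, Zic2, Marcks, Lrp6, Cecr2 and Ift122 were not matched. Their median GC content was 67.0%, with a range of 45.0% to 85.3%, against 61.3% over promoters of the counted genes. The GC box (GGGCGG, both strands) was found in 25 of 27 members (92.6%), in 65.0% of the 11867 promoters of counted genes and in 35.6% of all 32817 promoters of this length. The CCAAT box (CCAAT, both strands) was found in 8 members (29.6%), against 38.2% of the promoters of counted genes. The TATA box (TATAAA, both strands) was found in 0 of 27 members and in 6.60% of the promoters of counted genes, and the GLI motif GACCACCCA in 0 members and in 0.202%. Among the other motifs searched on both strands, CACGTG (E-box) occurred in Cited2 and Rab23 (9.96% of counted-gene promoters), ACATTCC (TEAD) in Abl1 (2.50%), GCATGCGC (NRF1) in Rab23 (5.42%) and CCGGAAG (ETS) in Fuz and Cfl1 (17.5%). A match is a string of letters and not a measured binding site. The RefSeq entry used lay 71695 bases from the RefSeq gene start for Abl1, 7725 for Ptch1, 7576 for Enah and 1774 for Fuz. Matches in these entries need not lie in the promoter windows that were counted.

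In the unperturbed cells these genes spanned most of the range of Pol II signal. On the scale of CPM per kb of region, WT promoters of the members ran from 1.39 to 47.1 with a median of 12.3, against a median of 11.4 over all genes. WT gene bodies ran from 0.723 to 18.5 CPM per kb with a median of 1.55, against 1.40 over all genes with a RefSeq length. The members were long genes, with a median gene body of 66.8 kb against 24.1 kb over those genes. The ratio of promoter to gene body signal per base, a measure of promoter-proximal pausing, had a WT median of 7.82 among members and 6.97 over all. The member values average the ratios of the libraries, while those over all are ratios of WT means. The 2 medians are therefore not directly comparable. Gene body densities used RefSeq lengths, and Mthfs was left out of the density plots because its RefSeq length of 29036 bases differed from 167038 bases in GENCODE.

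Regulators of actin and of cell junctions carried the strongest promoters. Arhgap35, which encodes a GTPase-activating protein, had 30.8, 23.8 and 15.0 CPM at its promoter in KO replicates 1 to 3 and 26.0, 27.0 and 17.6 CPM in WT. Vcl, which encodes vinculin, had 29.2, 21.1 and 16.5 CPM in KO and 26.2, 22.8 and 16.2 CPM in WT. Replicate 3 was the lowest library for both genes in both genotypes, and the genotypes overlapped. Marcksl1 averaged 20.7 ± 6.39 CPM in KO and 18.6 ± 5.96 CPM in WT, and Cfl1 averaged 19.8 ± 1.14 CPM in KO and 17.4 ± 2.06 CPM in WT (SD, n = 3 each). At the other end, the promoters of Sec24b (0.962 ± 0.301 CPM in KO and 0.694 ± 0.446 CPM in WT), Cobl (0.777 ± 0.573 CPM in KO and 0.903 ± 0.275 CPM in WT), Mthfs (0.912 ± 0.320 CPM in KO and 1.00 ± 0.277 CPM in WT) and Pax3 (1.30 ± 1.33 CPM in KO and 1.34 ± 0.971 CPM in WT) were the weakest. Every member region nevertheless had a mean of at least 10 reads over the 6 libraries, the lowest being the Sec24b promoter with 16.0.

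Ptch1, the hedgehog receptor, combined a gene body at the 94.8th percentile of all genes in WT (223 ± 67.1 CPM, and 208 ± 63.6 CPM in KO) with a promoter at the 14.7th percentile. The gene body rank was not scaled for length. Per kb, Ptch1 had 3.44 CPM in its WT gene body, between the 75th (2.12) and 90th (3.69) percentiles of genes with a RefSeq length. Its promoter to gene body ratio per base was 1.25 in KO and 0.805 in WT. Its RefSeq promoter entry lies 7725 bases from the start of the annotated gene, and the sources used here do not give the start behind its promoter window, so the promoter value is tied to an unknown start. The short actin genes Cfl1 (20.2 CPM per kb in KO and 18.5 in WT), Marcksl1 (18 in KO and 14.6 in WT) and Marcks (11.4 in KO and 11.9 in WT) had the densest gene bodies, although 63.1% of the Cfl1 gene body window also lies within Snx32 on the other strand, and the reads do not tell the strands apart. The promoter windows of Arhgap35, Gli3 and Abl1 likewise lie wholly or nearly so within antisense or processed transcripts, that of Ift122 lies 60.3% within Mbd4, and that of Mthfs lies within Gm29094 on the same strand. Overlaps here and below were taken on windows built from GENCODE gene ends, which need not be the windows that were counted.

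**Figure D1:**
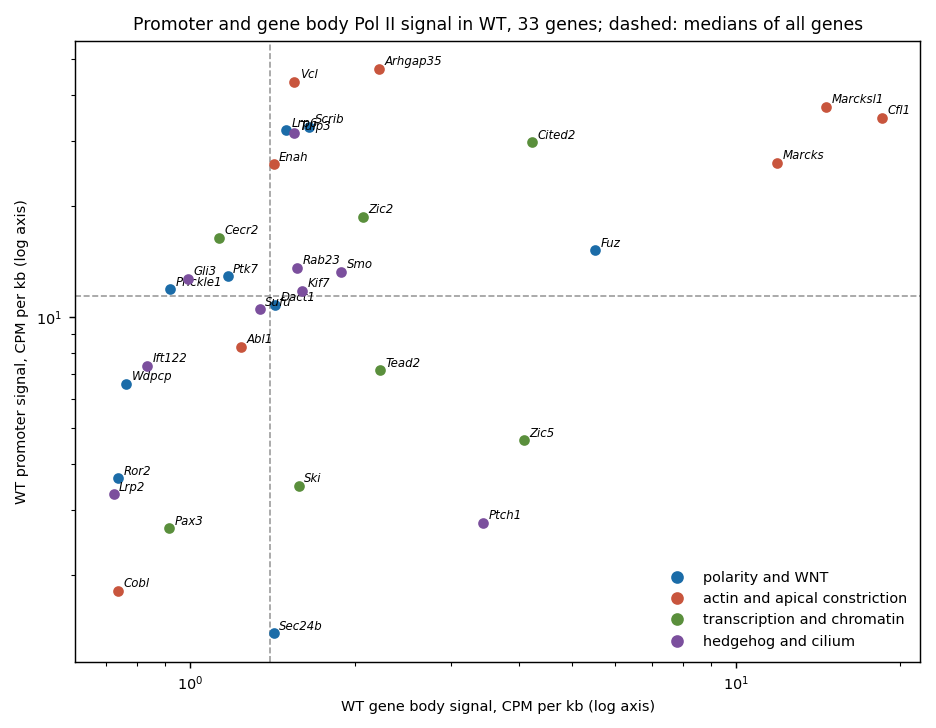
WT gene body signal (horizontal, CPM per kb, log axis) against WT promoter signal (vertical, CPM per kb, log axis) for 33 members coloured by role, with dashed lines at the medians of all genes (1.40 and 11.4). Cfl1, Marcksl1 and Marcks lie at the right. The lowest promoter to gene body ratios per base in WT are those of Ptch1 (0.805), Sec24b (1.03) and Zic5 (1.12).

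The question of the comparison was whether loss of ARMC5 changed Pol II occupancy of neural tube closure genes. No member region passed the test. At an adjusted p under 0.1 in limma-voom, blocked on the replicate pair and adjusted over all regions, 0 of 102 member regions were called, against 0.135% of all regions (49 of 36321). The edgeR quasi-likelihood test also called 0 members, while DESeq2 called 1, the Cited2 gene body (adjusted p = 0.0896). The smallest adjusted p values among members in limma were 0.122 for the Cited2 gene body and 0.159 for the Ski promoter.

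At an unadjusted p under 0.05, which sets no error rate over the list, 3 of 34 member promoters were higher in KO (Ski, Lrp2 and Wdpcp), against 7.55% of all promoters, and 2 were lower (Zic5 and Zic2), against 2.40%. Of the gene bodies, 2 were higher (Cited2 and Marcksl1), against 4.82% of all, and 1 was lower (Pax3), against 3.59%. Of the TES regions, 1 was higher (Cited2), against 1.40%, and 2 were lower (Ptch1 and Pax3), against 4.84%. Counts of 1 to 3 among 34 genes are too small to be set apart from these shares. Without the block, 1 promoter, 0 gene bodies and 0 TES regions of the members passed the same threshold.

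The medians of the list also lay near those of all genes, though a smaller share of member gene bodies lay above 0. The median log2 fold change of KO over WT was 0.04 for the member promoters (20 above 0 and 14 below) and 0.03 for all promoters. In pairs 1, 2 and 3 the promoter median was 0.19, 0.05 and -0.11, so the pairs disagreed in sign. The median was -0.04 for the member gene bodies (9 above 0 and 25 below) and -0.01 for all. For TES regions it was -0.17 for members (10 above 0 and 24 below) and -0.08 for all. The share above 0 was 58.8% of member promoters against 54.8% of all promoters. It was 26.5% against 45.3% for gene bodies and 29.4% against 34.4% for TES regions. With each kind of region scaled alone, the TES medians were -0.08 for members and -0.01 for all, and with scaling on low-signal gene bodies the member promoter median was -0.01. The 95% interval of the log2 fold change lay wholly within 1 in size, a 2-fold change, for 30 of 34 promoters, 34 of 34 gene bodies and 32 of 34 TES regions. It lay within 0.5 for 32 gene bodies, 17 promoters and 8 TES regions, so the intervals were narrowest for gene bodies. These intervals describe read counts. For 8 members with a WT gene body under 1 CPM per kb, the counts may hold many reads that the antibody did not enrich. A narrow interval near 0 is then not a close measure of Pol II. The promoters whose interval reached past 1 were those of Lrp2, Sec24b, Ski and Zic5, and the TES regions were those of Cobl and Pax3.

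**Figure D2:**
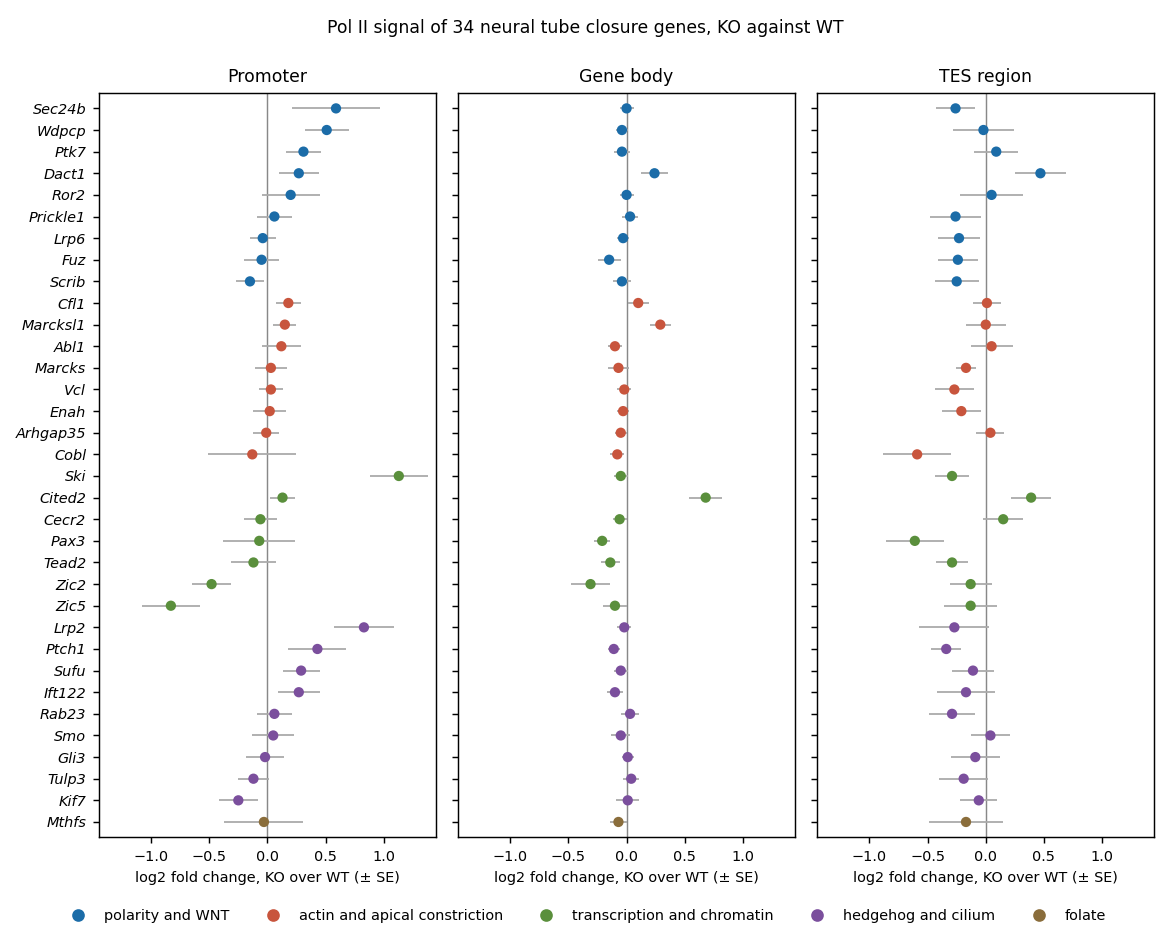
Log2 fold change of KO over WT (horizontal, with SE bars) for the 34 members in rows, ordered by role and then by promoter value, in the promoter, the gene body and the TES region. Gene bodies lie close to 0 except Cited2 (0.68), while promoters run from -0.83 (Zic5) to 1.13 (Ski).

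Transcription factors and chromatin proteins had promoter values on both sides of 0, with Ski the highest and Zic5 the lowest of all members and 0 called. Ski encodes a co-repressor of SMAD proteins, which carry TGF-beta and BMP signals. Its promoter had 2.12, 5.80 and 4.18 CPM in KO replicates 1 to 3 and 1.56, 2.37 and 1.30 CPM in WT. KO was higher in each pair, by the most in pairs 2 and 3, and the lowest KO library lay below the highest WT library. The log2 fold change was 1.13 ± 0.25 (SE, adjusted p = 0.159 in limma). It was 1.39 without replicate 1 (adjusted p = 0.00655), 0.98 without replicate 2 (0.748) and 1.00 without replicate 3 (0.116), all from limma. The promoter was also called without X- and Y-linked genes. It was called without either replicate 1 library alone, but under the block this repeats the fit without pair 1 and is no separate check. The counts behind these values were 59, 121 and 59 reads in KO and 32, 60 and 16 in WT. The Ski gene body, by contrast, had 102, 95.1 and 117 CPM in KO and 108, 103 and 112 CPM in WT, a log2 fold change of -0.05 ± 0.06. In WT the Ski promoter lay at the 18.8th percentile of all promoters and the gene body at the 83.8th of all gene bodies. The gene body rank was not scaled for length. Over 68.3 kb, the WT gene body had 1.58 CPM per kb, against a median of 1.40 over genes with a RefSeq length. As for Ptch1, the sources used here do not give the start behind the Ski promoter window.

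Cited2 encodes a co-activator that binds the acetyltransferases CBP and p300. Its gene body, which is 2.2 kb long, had 14.0, 20.1 and 11.5 CPM in KO and 7.28, 14.8 and 6.42 CPM in WT. KO was higher in 3 of 3 pairs, but replicate 2 was the highest library of each genotype and the genotypes overlapped. The log2 fold change was 0.68 ± 0.14 (adjusted p = 0.122, limma), with a 95% interval of 0.38 to 0.97. The gene body was called without replicate 1 (0.55, adjusted p = 0.0872) and without replicate 3 (0.66, 0.0447), and not without replicate 2. The Cited2 TES region had 4.46, 7.82 and 5.31 CPM in KO and 3.08, 6.45 and 3.98 CPM in WT (0.39 ± 0.17, adjusted p = 0.578), and its promoter had 21.8, 17.8 and 9.20 CPM in KO and 19.2, 16.5 and 9.02 CPM in WT (0.13 ± 0.11). All 3 regions were above 0, and the gene body was the furthest from it.

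Zic5 and Zic2 encode zinc-finger factors of the dorsal neural tube and lie head to head on chromosome 14, with RefSeq starts at 122465658 (minus strand) and 122475384 (plus strand). The Zic5 promoter had 1.01, 1.68 and 1.27 CPM in KO and 2.00, 3.01 and 1.95 CPM in WT. Every KO library was below every WT library. The share of all regions separated in this way was not counted, so this is a description only. The log2 fold change was -0.83 ± 0.25 (adjusted p = 0.373, limma), from 28, 35 and 18 reads in KO and 41, 76 and 24 in WT. The Zic5 promoter was about as dense as its gene body, with a ratio per base of 0.708 in KO and 1.12 in WT. The Zic2 promoter had 8.57, 8.20 and 3.19 CPM in KO and 9.08, 13.2 and 5.85 CPM in WT. It was lower in 3 of 3 pairs but overlapped between genotypes (-0.48 ± 0.17, adjusted p = 0.465), and it was called without replicate 1 (-0.73, adjusted p = 0.0565). Of the Zic2 promoter window, 32.9% also lies within the transcript 2610035F20Rik on the other strand. The Zic2 gene body had 7.70, 8.44 and 7.29 CPM in KO and 6.89, 13.3 and 9.34 CPM in WT, with pair 1 against the other pairs (-0.31 ± 0.17, and -0.54 without replicate 1 and -0.06 without replicate 2).

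Pax3, a paired-box factor that marks the dorsal neural tube and the neural crest, had a gene body of 62.2, 62.1 and 103 CPM in KO and 79.6, 67.0 and 116 CPM in WT. It was lower in KO in 3 of 3 pairs by a small amount (-0.21 ± 0.07, adjusted p = 0.438), with overlapping genotypes, and the value was -0.12 without replicate 1. The Pax3 TES region had 1.44, 0.815 and 2.27 CPM in KO and 2.20, 1.54 and 3.01 CPM in WT (-0.61 ± 0.25, adjusted p = 0.556). Its promoter was near the floor in both genotypes and differed by -0.07 ± 0.31. The gene body of Tead2, the DNA-binding partner of YAP, averaged 35.3 ± 4.40 CPM in KO and 38.9 ± 5.11 CPM in WT (-0.14 ± 0.08). Cecr2, a chromatin remodelling factor, differed by -0.06 ± 0.14 at the promoter and -0.06 ± 0.06 in the gene body.

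Zic5, Zic2 and Pax3 are known from the dorsal neural tube. Beside their lower values, the gene bodies of all 7 counted ganglionic eminence markers lay above 0, with a median log2 fold change of 0.28, a summed signal of 72.2 to 126 CPM in KO and 64.8 to 112 CPM in WT, and 0 called. At the promoters of these markers, 5 lay above 0 and 2 below, with a median of 0.19. The promoter medians of pairs 1, 2 and 3 were 0.21, 0.06 and -0.21, so the pairs disagreed in sign. The 3 counted dorsal markers had a median of -0.01 in the gene body and 0.22 at the promoter, where 2 of 3 lay above 0, up to 1.25. Whether the regional makeup of the cultures had a part in the values of Zic5, Zic2 and Pax3 was not tested, and fewer cells of a type and less Pol II per cell cannot be told apart in bulk chromatin.

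Polarity and WNT genes had a median log2 fold change of 0.20 at the promoter (6 of 9 above 0, with 0.28, 0.10 and -0.15 in pairs 1, 2 and 3), -0.03 in the gene body and -0.23 in the TES region (3 of 9 above 0), and 0 were called. Wdpcp encodes a planar polarity effector that is also needed for cilium formation. Its promoter had 4.25, 7.19 and 2.62 CPM in KO and 3.42, 4.27 and 2.19 CPM in WT (0.51 ± 0.19, adjusted p = 0.500). The difference was 0.28 to 0.30 without replicate 2 of either or both genotypes, which under the block is the same check. KO was higher in each pair, the genotypes overlapped, and the whole promoter window lies within Mdh1, a gene of malate metabolism on the other strand, so the reads may belong to either gene. Ptk7, a receptor-like protein of the planar polarity pathway, had 9.39, 10.1 and 4.32 CPM in KO and 6.98, 7.99 and 4.39 CPM in WT at its promoter (0.31 ± 0.15, adjusted p = 0.631), higher in pairs 1 and 2, and all 3 Ptk7 windows lie within the lincRNA Gm26904 on the other strand. Dact1, which encodes a protein that binds Dishevelled, had a gene body of 10.5, 19.6 and 19.6 CPM in KO and 9.08, 15.0 and 18.8 CPM in WT (0.24 ± 0.12, adjusted p = 0.641), and 0.12 to 0.14 without replicate 2 of either or both genotypes. Its TES region had 2.09, 2.93 and 4.11 CPM in KO and 1.76, 2.14 and 2.44 CPM in WT (0.47 ± 0.22, adjusted p = 0.610), and 78.7% of that window lies in the transcript 4930474H06Rik on the other strand.

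Prickle1, a cytoplasmic polarity protein, had 2.16, 2.16 and 2.34 CPM in KO and 2.34, 3.01 and 2.52 CPM in WT at its TES region. No KO library exceeded a WT library there, but the difference was small against its error (-0.26 ± 0.22, adjusted p = 0.795). Scrib, the basolateral polarity scaffold that is mutated in circletail mice, differed by -0.15 ± 0.12 at the promoter and -0.04 ± 0.08 in the gene body. Lrp6, a co-receptor for WNT, differed by -0.04 ± 0.11 and -0.03 ± 0.05. Ror2, a receptor for WNT5A, differed by 0.20 ± 0.25 and by less than 0.01 ± 0.06 in the gene body. Sec24b, a coat protein that sorts the polarity protein VANGL2 for export, had the lowest WT promoter of the list and a large but uncertain difference there (0.59 ± 0.38, adjusted p = 0.727), with 111 ± 8.07 CPM in KO and 112 ± 16.9 CPM in WT in its gene body. Fuz, a polarity effector of the cilium, differed by -0.05 ± 0.15 and -0.15 ± 0.10.

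Among the actin genes the gene body of Marcksl1, which encodes a membrane protein that binds actin and is a substrate of protein kinase C, had the smallest p. It had 45.8, 39.4 and 33.9 CPM in KO and 35.8, 35.7 and 24.9 CPM in WT. KO was higher in each pair, and the lowest KO library lay below both of the higher WT libraries (0.29 ± 0.09, adjusted p = 0.378). Its promoter differed by 0.15 ± 0.10. The related gene Marcks had 101, 53.0 and 33.3 CPM in KO and 101, 66.0 and 28.5 CPM in WT in the gene body, a far larger spread between replicates than between genotypes (-0.07 ± 0.09). Cfl1, which encodes the actin-severing protein cofilin, had 20.2, 20.8 and 18.5 CPM in KO and 19.5, 17.1 and 15.4 CPM in WT at its promoter (0.18 ± 0.11, adjusted p = 0.694, with 0.28 without replicate 1 and 0.11 without KO replicate 2). Enah, an actin-elongating protein, differed by 0.02 ± 0.14 at the promoter and -0.03 ± 0.05 in the gene body. Abl1, a tyrosine kinase, differed by 0.12 ± 0.17 and -0.10 ± 0.06. The gene bodies of Vcl (-0.02 ± 0.06), Arhgap35 (-0.05 ± 0.05) and the actin nucleator Cobl (-0.08 ± 0.06) lay within 0.1 of 0.

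Of the hedgehog and cilium genes, Lrp2, which encodes the endocytic receptor megalin, had the smallest promoter p. Its promoter had 4.93, 2.01 and 1.63 CPM in KO and 2.00, 1.35 and 1.62 CPM in WT. KO replicate 1 was more than 2-fold above every other library, and pair 3 did not differ. The log2 fold change was 0.83 ± 0.26 (adjusted p = 0.416, limma). It was 0.37 without replicate 1, and 0.36 without either replicate 1 library alone, which under the block is the same check. The Ptch1 TES region had 10.8, 8.73 and 8.99 CPM in KO and 14.9, 11 and 9.83 CPM in WT, lower in each pair with KO replicate 1 inside the WT range (-0.34 ± 0.13, adjusted p = 0.519). The Ptch1 gene body had 280, 181 and 161 CPM in KO and 298, 204 and 168 CPM in WT (-0.11 ± 0.05, adjusted p = 0.627, and -0.07 without replicate 2). Ptch1 is both the receptor and a transcriptional target of the pathway.

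Gli3, the main repressor among the GLI factors, differed by -0.02 ± 0.16 at the promoter and 0.01 ± 0.05 in the gene body. Smo, the transducer that the receptor restrains, differed by 0.05 ± 0.18 and -0.05 ± 0.08, and Sufu, which holds GLI proteins inactive, by 0.29 ± 0.16 and -0.05 ± 0.06. Kif7, a ciliary kinesin, differed by -0.25 ± 0.17 and 0.01 ± 0.10, and Tulp3, which carries receptors into the cilium, by -0.12 ± 0.13 and 0.04 ± 0.07. The transport protein Ift122 differed by 0.27 ± 0.18 and -0.10 ± 0.07, and the GTPase Rab23 by 0.06 ± 0.15 and 0.03 ± 0.08. Of the 9 genes, 8 had TES values below 0, with a median of -0.17, against 7938 of all 12107 TES regions below 0 with a median of -0.08, and the medians of pairs 1, 2 and 3 were 0.06, -0.23 and 0. Mthfs, the folate enzyme that returns 5-formyltetrahydrofolate to the active pool, had 0.972, 1.20 and 0.566 CPM in KO and 0.684, 1.19 and 1.14 CPM in WT at its promoter, with no direction shared by the pairs (-0.03 ± 0.34), and its gene body differed by -0.07 ± 0.07.

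**Figure D3:**
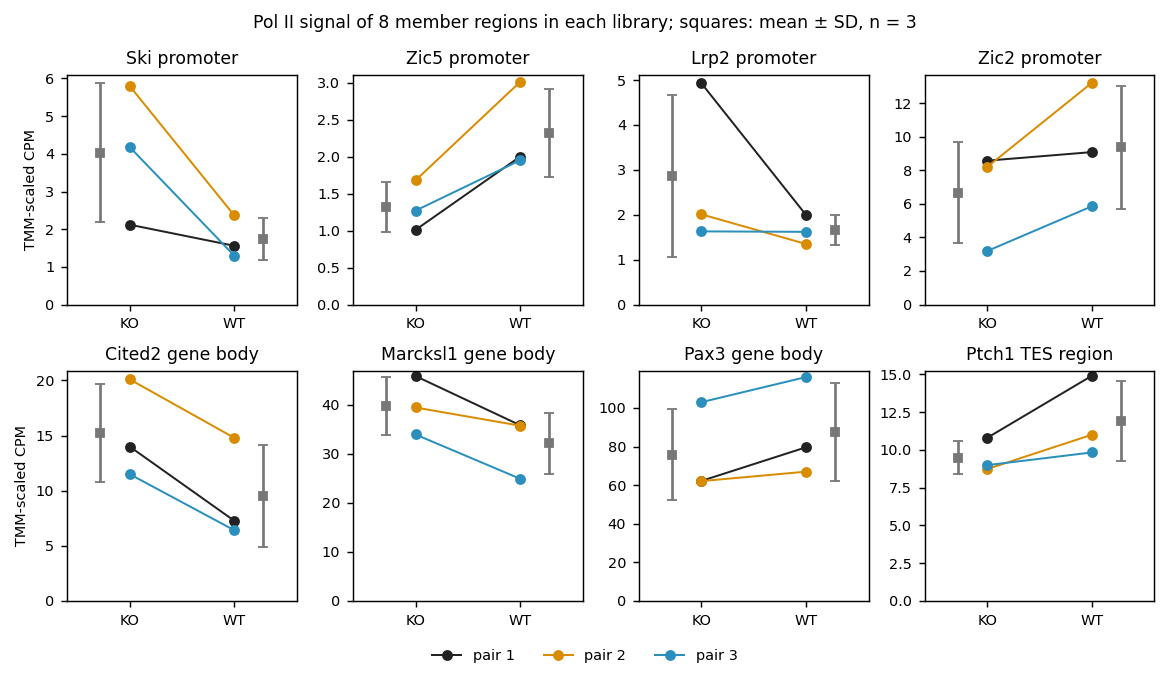
TMM-scaled CPM (vertical, from 0) of 8 member regions in each library, KO at the left and WT at the right, with lines joining replicate pairs and grey squares for mean ± SD (n = 3). Every pair slopes the same way in each panel except pair 3 of Lrp2, which is level. The Zic5 promoter runs from 1.01 to 1.68 in KO and from 1.95 to 3.01 in WT.

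The promoter to gene body ratio removes what both regions of a gene share. In limma, 0 of 34 members were called at an adjusted p under 0.1, against 0.0331% of 12096 genes (4), and 4 of 34 had an unadjusted p under 0.05, against 10.7%. The log2 ratio of Ski was -5.57, -4.03 and -4.80 in KO and -6.09, -5.42 and -6.39 in WT, higher in each pair (1.17 ± 0.28, adjusted p = 0.248). That of Zic5 was -4.45, -4.11 and -3.88 in KO and -3.48, -3.35 and -3.59 in WT, lower in each pair (-0.67 ± 0.22, adjusted p = 0.327). That of Cited2 was 0.64, -0.17 and -0.32 in KO and 1.40, 0.15 and 0.49 in WT (-0.63 ± 0.20, adjusted p = 0.327), lower in each pair, with a larger difference in the gene body than at the promoter. Lrp2 was the remaining gene, at 0.63 ± 0.28. With the spread modelled on the mean promoter count, Ski (adjusted p = 0.0131) and Cited2 (0.0613) were called among 227 genes. For the TES to gene body ratio, 0 of 34 members were called, against 0.00828% of 12076 genes (1), and 0 had an unadjusted p under 0.05, against 7.27%. The smallest p values there belonged to Pax3 (-0.43 ± 0.21, adjusted p = 0.696, and -0.25 without replicate 2) and Cited2 (-0.33 ± 0.17, adjusted p = 0.703).

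Other genes of the same pathways, taken from pathway lists drawn up with earlier results of these data known, were likewise without a call. Of 48 further hedgehog and cilium genes, 35 polarity and WNT genes, 39 actin genes, 26 transcription and chromatin genes and 20 folate genes, 0 were called in any region by limma. Over all regions the share called was 0.135% (49 of 36321). At that share, lists of this size need hold no call, so the 0 says nothing particular about these pathways. At an unadjusted p under 0.05, gene bodies higher and lower in KO numbered 1 and 1 for hedgehog and cilium, 0 and 2 for polarity and WNT, 2 and 2 for actin, 2 and 1 for transcription and chromatin and 2 and 0 for folate, beside 4.82% higher and 3.59% lower over all genes. Promoters numbered 2 and 1, 0 and 1, 4 and 0, 1 and 1, and 2 and 0 in the same order of lists, beside 7.55% and 2.40%. TES regions numbered 1 and 3, 0 and 2, 1 and 2, 0 and 2, and 1 and 0, beside 1.40% and 4.84%. In the transcription list, the values with the smallest p included 2 further Zic genes, shown here for that p alone. The Zic1 promoter averaged 1.51 ± 1.10 CPM in KO and 2.98 ± 1.36 CPM in WT (-0.97 ± 0.26, adjusted p = 0.307), and the Zic4 gene body averaged 30.4 ± 3.73 CPM in KO and 37.5 ± 8.68 CPM in WT (-0.32 ± 0.10, adjusted p = 0.374).

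In the polarity list the gene body of Celsr1, a core polarity cadherin, averaged 97.8 ± 32.7 CPM in KO and 116 ± 28.8 CPM in WT (-0.27 ± 0.07, adjusted p = 0.284). In the actin list the promoter of Rhoa, the GTPase that drives actomyosin contraction, averaged 25.5 ± 14.5 CPM in KO and 18.6 ± 7.13 CPM in WT (0.46 ± 0.11, adjusted p = 0.241), and the gene body of Limk2, a kinase that inactivates cofilin, 116 ± 28.6 CPM in KO and 138 ± 52.2 CPM in WT (-0.24 ± 0.07, adjusted p = 0.347). In the hedgehog list the gene body of the activator Gli2 averaged 184 ± 50.5 CPM in KO and 204 ± 64.8 CPM in WT (-0.13 ± 0.05), and that of Gas1, a co-receptor, 24.8 ± 7.04 CPM in KO and 20.9 ± 7.71 CPM in WT (0.25 ± 0.10).

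In sparse gene bodies, replicates of the same genotype differed by more than the genotypes did, and the replicate difference followed how dense the gene body was. For 8 members with a WT density under 1 CPM per kb (Prickle1, Ror2, Wdpcp, Pax3, Lrp2, Cobl, Gli3 and Ift122), replicate 3 exceeded replicate 1 by a median of 2.16-fold in KO and 2.37-fold in WT. Gli3 showed this in full, with 153, 272 and 356 CPM in KO and 143, 266 and 382 CPM in WT. For 15 members from 1 to 2 CPM per kb the medians were 1.16 in KO and 1.17 in WT. For 10 members over 2 CPM per kb, which include Ptch1, Marcks, Fuz and Cfl1, they were 0.811 in KO and 0.727 in WT, so replicate 3 was the lower. All genes had the same order. Their medians were 2.09 in KO and 2.22 in WT under 1 CPM per kb, 1.17 in KO and 1.18 in WT from 1 to 2, and 0.782 in KO and 0.751 in WT over 2. The class under 1 CPM per kb held 2917 of 11763 genes, and the 10th percentile of all gene bodies was 0.762 CPM per kb, with Lrp2, Ror2 and Cobl below it and Gli3, Prickle1 and Pax3 above. Without an input library, signal at these densities cannot be told apart from reads that the antibody did not enrich.

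**Figure D4:**
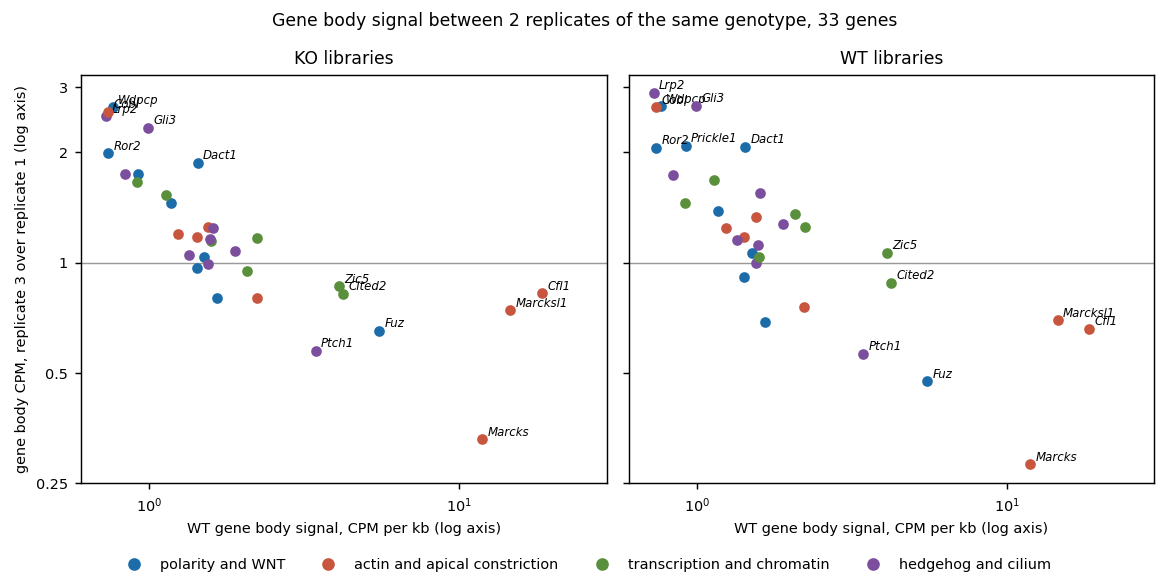
Gene body CPM of replicate 3 over replicate 1 (vertical, log axis) against WT gene body signal (horizontal, CPM per kb, log axis) for 33 members, with KO libraries at the left and WT libraries at the right. In both genotypes sparse genes such as Lrp2, Wdpcp, Cobl and Gli3 lie above 2 and Marcks lies lowest.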

How the data were processed

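Pol II ChIP-seq was compared between 3 KO and 3 WT libraries of cultured mouse NPCs, grouped and numbered by their titles. The submitters' processing notes list the build GRCm38 (mm10) and, among the tools, bcl2fastq 2.20, BWA, Trimmomatic, HOMER and limma. The gene annotation is not given in the sources that were used. With HOMER, the authors counted reads in the promoter (400 bases before to 100 after the start), the gene body (from 100 after the start to 100 before the end) and the TES region (100 before to 2000 after the end), and deposited unnormalized counts. They removed genes without signal in KO cells beforehand, which can remove genes lost in KO but not genes lost in WT. They also deposited log2 CPM from TMM and voom, used here only as an alternative.

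The counts of all 36321 regions were scaled together with TMM and fitted with limma-voom (limma 3.58.1 with edgeR 4.0.16 in R 4.3.3, and DESeq2 1.42.0 as an alternative), two-sided, blocked on the replicate pair. Regions were called at a Benjamini-Hochberg adjusted p under 0.1, taken over every region. Same-numbered libraries deviated together (correlations of 0.65 to 0.71 in promoters, 0.76 to 0.89 in gene bodies and 0.61 to 0.77 in TES regions), as in the replicate pairs of the study's methods. No 2 libraries of a genotype were copies (chi-square per degree of freedom 28.6 to 76.9). Ratios were log2 of counts with 0.5 added, where both regions averaged 10 or more, tested with limma under the same block. Levels are TMM-scaled CPM. Depth ran from 14528870 to 25199455 reads, and log2 fold changes had a median SE of 0.17 (promoters), 0.09 (gene bodies) and 0.20 (TES regions). The p-values of the blocked fit weigh the KO over WT difference against how much that difference varied between the replicate pairs of these cultures. Differences between replicates that both genotypes share are taken out by the block. The steps were tested on simulated data.

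Named genes were the members with the smallest p per region, ratio and role, those with the highest and lowest WT promoter levels, and up to 2 genes per pathway list and region, of which a part is printed. Other members were added for completeness. Members and lists were chosen with earlier results of these data known. Overlaps used windows built on GENCODE vM21 gene models, which need not match the counted windows, and promoters and lengths came from RefSeq GRCm38.p6. Alternatives covered the test, block, scaling, filter, sex-linked genes and each library.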

Additional observations from a re-analysis of the deposited data

How the results depend on the processing

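The reported fit called 49 regions (44 higher and 5 lower in KO, 89.8% higher) and 0 member regions. The number of called regions was 74 with each kind of region scaled alone, 24 when scaled on low-signal gene bodies (16 higher and 8 lower, 66.7% higher), 125 without X- and Y-linked genes (run because WT replicate 3 lacks Y-linked signal) and 0 without the replicate block, where 0 members were called. Leaving out a pair or a library gave 11 to 546 called regions. Members called were 1 with DESeq2 (the Cited2 gene body, adjusted p = 0.0896), which gave no adjusted p to 27 member regions, and 2 without sex-linked genes (the Cited2 gene body, 0.0656, and the Ski promoter, 0.0912). They numbered 0 to 3 when a pair or library was left out. Without pair 1, KO replicate 1 or WT replicate 1 they were the Cited2 gene body and the Ski and Zic2 promoters. Without KO replicate 2 or any replicate 3 library or pair it was the Cited2 gene body, and without pair 2 or WT replicate 2 none. The median of the member gene bodies, -0.04, was -0.09 with scaling on low-signal gene bodies (all gene bodies -0.06), and lay from -0.06 to 0 when libraries were left out. That of the member TES regions, -0.17, was -0.08 with each kind of region scaled alone and -0.10 without the block or on the deposited log2 CPM. That of the member promoters, 0.04, was -0.01 with scaling on low-signal gene bodies and -0.06 to 0.13 when libraries were left out. Promoter to gene body calls, 4 as reported, were 0 without the block, 227 (2 members) with the spread modelled on the mean count, 68 (1 member, Ski) with a mean of at least 30, and 9 to 371 (0 or 1 members) when libraries were left out. TES to gene body calls, 1 as reported, were 0 without the block, 21 with the spread on the mean count, 2 with a mean of at least 30, and 1 to 59 when libraries were left out, with 0 members in each. The Mthfs promoter reversed when replicate 3 was left out, at 0.21 to 0.23 against -0.03, within a range of -0.30 to 0.23 over the libraries left out. The cause was not tested. TES regions and promoters of few reads limit the precision, and all intervals cover these 6 libraries alone.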
